A study of Rattus norvegicus with 48 samples.

Results

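The loci described here are 164 short stretches of the rat genome where sperm DNA methylation differed between an organochlorine-exposed line and its control line in the F2 and the F3 generation, with nothing listed in F1. They were chosen by the authors' deposited lists of differentially methylated cytosines: all listed cytosines were pooled, those at most 1000 bp apart were merged into a locus, and a locus was kept if it had cytosines from the F2 and the F3 lists, none from the F1 lists and fewer than 5 distinct cytosines. The 164 loci hold 255 of 3998 distinct listed cytosines and make up 6.04% of 2716 loci in all. They are 19.7% of the 831 loci listed in F2 and 11.8% of the 1391 listed in F3. A cytosine is listed where the authors' false discovery rate was below 1% and the group difference was at least 20 percentage points, so these measured values set which loci are described, and the values below are a description without a test.

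Sperm came from the epididymis of Sprague-Dawley rats, an outbred laboratory strain, and was measured by reduced representation bisulfite sequencing. This assay cuts DNA at CpG-rich sites and uses bisulfite, which converts unmethylated but not methylated cytosines, to read a methylation percentage at each cytosine. Founder females (F0) were given corn oil or, at 500 µg per kg body weight, an Arctic mixture of persistent organic pollutants by gavage, over 5 weeks and then until they gave birth, and males of the later generations were killed at postnatal day 90. The labels hold 48 samples in 8 groups of 6, namely control and organochlorines in each of 4 labelled generations, while the lists are called F1, F2 and F3, which are the names kept below. Only the founders are described as dosed, so the groups of later generations are descendants of dosed or control females, and whether males of a group shared a sire or litter is not given in the sources used here. Lists of differences cannot show how pure the sperm was.

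In mammals, methylation at CpG sites is largely erased in primordial germ cells and laid down again before sperm form, and much of it is reset once more after fertilisation. When a pregnant female is dosed, the fetus and the germ cells inside it are reached directly, whereas the generation after those germ cells is the first that was never itself in contact with the dose. If the list names count from the founders as F0, F2 males arose from such germ cells and F3 males belong to that later generation. This is background to why these loci were set apart, and which labelled generation each list holds is not stated.

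Some limits hold for every value below. Each difference is 1 group contrast of 1 generation, with no value of single samples, so it carries no error and no depth. Which group was subtracted from which is not stated, so hyper- and hypomethylated are used as the lists use them. Absence from the F1 lists means that no difference of 20 points passed there, and it does not separate a small F1 difference from a cytosine that was not measured. Labelled generations 3 and 4 were sequenced on the same lanes, and generations 1 and 2 on other lanes, each group having 3 samples per lane. The samples whose labels cite the lists are those of labelled generations 2, 3 and 4. If these are F1, F2 and F3, the sharing of lanes by F2 and F3 and the listing of these loci in F2 and F3 alone cannot be told apart. Labelled generation 1 would then be F0, although its samples are sperm and the founders described as dosed are females. If the list names instead follow the labelled numbers, F1 and F2 shared their lanes and F3 was on other lanes. Positions are on the build Rnor_5.0, no genome or annotation of which was used here, so loci are named by position, without gene or sequence.

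Most loci were a lone cytosine seen again. Of the 164 loci, 96 held 1 distinct cytosine, 52 held 2, 9 held 3 and 7 held 4. In 38 loci the cytosines were the forward- and reverse-strand cytosines of 1 CpG and nothing else, 28 loci spanned 3 to 200 bp, and 2 spanned more. The F2 lists contributed 206 entries (108 hypermethylated, 98 hypomethylated) and the F3 lists 223 (122 and 101). The very same cytosine was listed in both generations in 152 loci, or 92.7%, and 174 of the 255 cytosines were listed in both. A further 32 cytosines were listed in F2 alone and 49 in F3 alone, beside a listed neighbour of the other generation. The 96 loci with 1 distinct cytosine are among the 152 by the rule, since both generations had to be listed. The 12 loci with no cytosine listed in both all held more than 1.

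Most loci had the same direction in both generations, at a share near that of all loci listed in F2 and F3. The mean difference of a locus had the same sign in F2 and F3 in 137 of 164 loci, or 83.5% (95% exact Clopper-Pearson interval 77.0% to 88.9%, counting error over loci only), against 83.2% of all 303 loci listed in F2 and F3, these included. Hypermethylation in both generations was seen in 71 loci and hypomethylation in both in 66. In 15 loci the mean was hypermethylated in F2 and hypomethylated in F3, and in 12 it was the other way round. Hypermethylated loci made up 52.4% in F2, where the share over all loci listed in F2 was 55.4%, and 50.6% in F3, where it was 46.7%. None of these shares was tested, since the same contrasts chose the loci. Counted by cytosine, 151 of the 174 listed in both generations had the same sign.

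**Figure D1:**
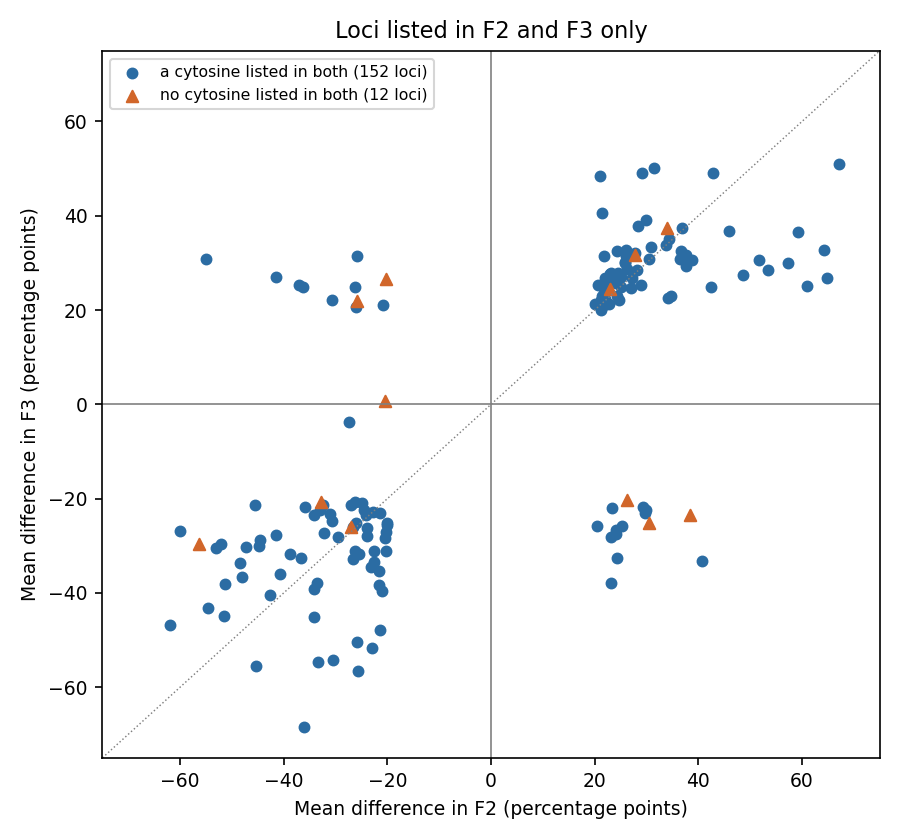
Mean methylation difference of each of the 164 loci in F2 (x axis) and F3 (y axis), in percentage points, with circles for the 152 loci that hold a cytosine listed in both generations and triangles for the 12 that do not; the dotted line marks equal values. The upper right and lower left fields hold the 137 loci of the same sign, and no listed cytosine lies between -20 and 20 points, so the 2 F3 means near 0 come from loci with cytosines of both signs.

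Median sizes lay close together in F2 and F3, where every listed cytosine had to pass the same 20-point minimum. The upper quartile and the number of loci over 40 points were higher in F2. The absolute mean difference had a median of 27.0 points in F2 (quartiles 23.2 and 36.7, highest 67.2) and of 28.0 points in F3 (quartiles 24.6 and 32.9, highest 68.4). Of the 164 loci, 82 were larger in F3 and 82 larger in F2, and the F3 minus F2 size had a median of 0.068 points. Over 40 points there were 33 loci in F2 and 19 in F3. At the low end, 57 loci were under 25 points in F2 and 47 in F3. Across the 164 loci the absolute differences of F2 and F3 were weakly related (Pearson r = 0.25, Spearman rho = 0.29, given as a description, since loci share the libraries of their generation and listing on both axes starts at 20 points).

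The 2 strands of a CpG, which separate reads of the same libraries cover, give a measure of precision within the lists. Both strands were listed in 20 CpGs of these loci in F2 and in 34 in F3, and they had the same sign every time, among CpGs where both strands passed the 20-point minimum. The gap between strands had a median of 3.94 points in F2 (0.14 to 14.2) and of 4.41 points in F3 (0.030 to 18.2). By comparison, the gap between F2 and F3 at the 151 cytosines of the same sign had a median of 7.06 points. The strand gap does not include the spread between animals.

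Among the loci hypermethylated in both generations, chromosomes 10 and 2 held the largest. The authors' deposited table gave chr10:14760342 a difference of 67.2 points for F2 and 51.0 for F3, and the F2 value is the largest hypermethylated entry of these loci. For the reverse-strand cytosine chr2:172865199 the authors' deposited table gave 42.8 points for F2 and 62.9 for F3, the latter being the largest hypermethylated F3 entry. Both strands of a CpG starting 126 bp further on were listed for F3 as well, with 35.7 and 48.4 points per the authors' deposited table. These were the 2 hypermethylated loci whose mean passed 40 points in both generations.

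Other strong hypermethylated loci differed in how closely the generations matched. The authors' deposited table gave chr7:79421576 59.3 points for F2 and 36.6 for F3, and chr8:30505641 46.0 and 36.7 points. Nearly equal F2 and F3 values, per the authors' deposited table, stood at chr20:13649915 (36.8 and 37.5 points), chr1:170475592 (34.3 and 35.1) and chr1:32254785 (33.7 and 33.9). The CpG chr8:83086211-83086212 was listed on its forward strand for F2 and on its reverse strand for F3, with 34.0 and 37.5 points per the authors' deposited table. In these last 4 loci the generations lay less than 4 points apart, which is within the range of gaps between strands.

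The mean passed 40 points in each generation in 5 of the 66 loci hypomethylated in both, against 2 of the 71 hypermethylated in both. These counts are small, hold for this cut-off only and were not tested. The 5 hypomethylated loci are given here. The authors' deposited table gave chr12:30670601 a difference of -62.0 points for F2, the lowest F2 entry of these loci, and of -46.7 for F3. With -45.4 points for F2 and -55.5 for F3, chr2:41433248 was the larger in F3 per the authors' deposited table. The other 3, all larger in F2 per the authors' deposited table, were chr15:45330614 (-51.5 and -45.0 points), chr7:4501687 (-54.7 and -43.3) and chr20:13620586 (-42.6 and -40.6).

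The rest of the leading hypomethylated loci were under 40 points in 1 of the generations. For chr14:89048022 the authors' deposited table gave -51.3 points for F2 and -38.1 for F3, and for chr1:143095755 it gave -48.0 and -36.6. The CpG chr9:14324074-14324075 had -36.1 points on its reverse strand for F2, and -68.2 and -68.5 points on its forward and reverse strands for F3, per the authors' deposited table. The last value is the lowest F3 entry of these loci, and its F3 mean is 32.3 points larger in size than the F2 value. Both generations passed 30 points in 37 of the 137 loci of the same sign.

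**Figure D2:**
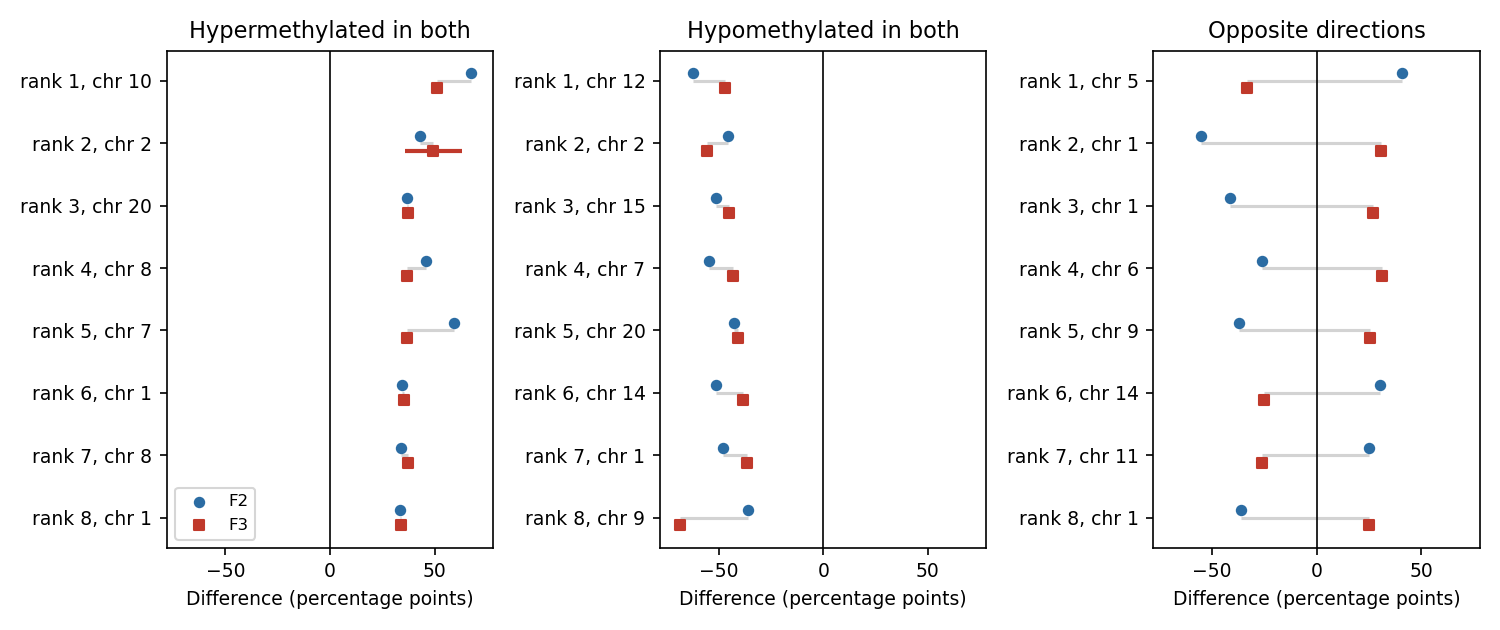
The 8 loci with the largest smaller absolute mean difference of F2 and F3 among those hypermethylated in both, hypomethylated in both and of opposite direction, with the mean difference in percentage points on the x axis (circles F2, squares F3, blue and red bars the range over listed cytosines where there are several). The locus of rank 1 on chromosome 10 runs from 67.2 to 51.0 points, and the opposite loci cross 0.

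Of the 7 loci with 4 cytosines, 1 was listed in full in both generations, 3 in full in 1 generation and 3 in full in neither. The same 4 forward-strand cytosines of chr1:263897223-263897360 were listed both times, with 28.6 to 31.4 points for F2 and 34.6 to 40.9 for F3 per the authors' deposited table. Each of the 4 was larger in F3. At chr16:2614221-2614257 both strands of 2 CpGs were listed for F2 with -29.9 to -21.8 points, and 1 of the 4 cytosines again for F3 with -21.4, per the authors' deposited table.

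The reverse was seen on chromosomes 2 and 5. At chr2:41880065-41880174 the authors' deposited table held 1 cytosine for F2, with -20.4 points, and 4 for F3, with -30.5 to -26.1. At chr5:30020131-30020326 it was likewise 1 for F2, with 22.4 points, and 4 for F3, with 21.8 to 33.1, per the authors' deposited table. In these last loci and in that of chromosome 16, the generation with fewer entries stood close to the 20-point minimum. At chr8:92955593-92955676 it did not, with a mean of -27.0 points over 3 cytosines in F2 and -26.0 at 1 in F3. Why neighbours were not listed was not tested, as values under the minimum and depth are not known. The locus chr20:6944675-6944812 was hypermethylated in both, with a mean of 36.4 points over 2 cytosines in F2 and of 30.7 over 3 in F3.

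Mixed signs within a generation occurred in 2 of the 164 loci, both in F3. The authors' deposited table gave chr20:13622563 -27.5 points for F2 and -28.9 for F3, but chr20:13622654, which lies 91 bp away, 21.2 points for F3. For chr14:67742983 the authors' deposited table gave -20.6 points in F2, and for the neighbours chr14:67742854 and chr14:67742915 it gave 23.6 and -22.1 in F3. The F3 means of these loci, -3.85 and 0.76 points, do not describe any listed cytosine. Without these 2 loci, 136 loci had 1 direction throughout and 26 had opposite directions.

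The 27 loci of opposite mean sign had few large values in both generations. The smaller of the F2 and F3 absolute means had a median of 23.2 points in them and of 25.8 points in the 137 of the same sign. Its highest value was 33.2 points in the former and 51.0 in the latter. A cytosine listed in both generations was present in 21 of the 27, or 77.8%, and in 131 of the 137, or 95.6%. Loci with a single distinct cytosine hold such a cytosine by the rule, so these shares also depend on how many cytosines a locus held. These values were not tested, as both contrasts chose the loci.

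Opposite directions at the very same cytosine were found with sizeable values. The authors' deposited table gave chr5:33512233 a difference of 40.7 points for F2 and -33.2 for F3, and chr1:80856768 one of -55.0 for F2 and 30.7 for F3. These were the 2 opposite loci that passed 30 points in both generations. The forward-strand cytosines chr1:136983981 and chr1:136984031, which are 50 bp apart, had -40.9 and -42.0 points for F2 and 26.5 and 27.5 for F3 per the authors' deposited table. At chr6:137853783 the F2 value was -25.9 points and the F3 value 31.2 per the authors' deposited table, with 31.8 for F3 on the forward strand of the CpG. The chromosome 1 locus thus reversed at both of its cytosines, whereas on chromosome 6 the forward strand was listed in F3 only.

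Reversals from F2 to F3 that ranked lower by the smaller absolute mean were those of chr9:57292423 (-37.1 to 25.3 points), chr11:77660285 (25.2 to -25.9) and chr1:32963545 (-36.3 to 24.9), per the authors' deposited table. The entries of chr14:46826920-46827697 lie 777 bp apart, with -25.2 points for F3 at its start and 30.5 for F2 at its end per the authors' deposited table, so this locus does not show a reversal at 1 cytosine. Of the 12 loci with no cytosine listed in both generations, 6 had the same sign and 6 the opposite one. In 6 of the 12 the entries were the 2 strands of 1 CpG, 4 with the same sign and 2 with opposite signs. Opposite loci lay on 14 chromosomes, with 6 on chromosome 1 and 4 on chromosome 3.

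Large differences in size without a difference in sign were found in some neighbouring loci. Of the 137 loci of the same sign, 60 had F2 and F3 means at most 5 points apart, and 22 had means over 20 points apart, 14 of them larger in F2 and 8 larger in F3. Within 202 kb of chromosome 5, the F2 and F3 values in the authors' deposited table were -22.9 and -49.6 points at chr5:153639366, -21.5 and -47.9 at chr5:153668717, and 20.9 and 48.5 at chr5:153841462. All 3 were near the minimum in F2 and more than 2-fold larger in F3, although 1 of them had the other sign. Another locus larger in F3 was the CpG chr8:60693766-60693767, whose strands had -26.7 and -24.8 points for F2 and -56.0 and -57.2 for F3 per the authors' deposited table. There the F3 mean was 30.8 points larger in size, while the strands differed by less than 2 points.

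Chromosome 20 held loci with the opposite order of sizes. The authors' deposited table gave the reverse-strand cytosine chr20:11204695 64.9 points for F2 and 29.6 for F3, and the forward strand of the CpG 23.8 points for F3. Further on, the F2 and F3 values in the authors' deposited table were -45.5 and -21.5 points at chr20:15819571, 57.3 and 29.9 at chr20:16431177, and 60.9 and 25.1 at chr20:16697222. All 3 of these neighbours were larger in F2 by more than 20 points, again with 1 of the other sign. Larger F2 than F3 values were also held by chr17:15831885 (-59.9 and -26.9 points) and chr12:15419713 (64.2 and 32.7) per the authors' deposited table.

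Taking loci at most 1 Mb from the next as a run, 65 of the 164 loci fell into 26 runs of at least 2 loci and the other 99 stood alone. Every locus mean kept its sign between F2 and F3 in 24 of the 26 runs, 1 of which holds a locus with F3 entries of both signs. The 83.5% of the same mean sign over all 164 loci counts loci and not runs, so it is not a like measure. Runs of other loci were not counted. Hyper- and hypomethylated loci stood side by side in 12 of them in F2, and 14 had 1 direction. All loci of a run were larger in F3 in 6 runs, all larger in F2 in 6, and 14 were mixed. Loci of a run come from the same libraries and lie near each other, so they are not independent observations.

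Of the 9 runs with at least 3 loci, 3 lay on chromosome 20 and 8 had only loci of the same mean sign. The most compact of the 9, chr20:13620586-13649915, covered 29.3 kb and switched direction along its length, with locus means in F2 of -42.6, -27.5, 48.7 and 36.8 points and in F3 of -40.6, -3.85, 27.4 and 37.5. Within it, chr20:13647017-13648042 held 3 entries in each generation, at 38.6 to 54.9 points for F2 and 21.4 to 30.8 for F3 per the authors' deposited table. The 4 loci of chr12:24922142-27069228 were all hypomethylated, with means of -26.6, -20.3, -33.5 and -56.3 points in F2 and of -32.8, -27.2, -54.7 and -29.7 in F3. On chromosome 2, the 3 loci of chr2:41433248-42482189 were likewise hypomethylated in both generations.

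The other 2 runs of 4 loci held both directions. In chr9:14324074-15334153 the large hypomethylated CpG stood beside 3 hypermethylated cytosines of 22.9 to 28.1 points in F2 and 22.2 to 28.4 in F3. The run chr20:9821247-11204695 began with the only opposite locus of the 9 runs, whose entries lie 169 bp apart, with 38.3 points for F2 and -23.5 for F3 per the authors' deposited table. Its other 3 loci kept their sign.

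**Figure D3:**
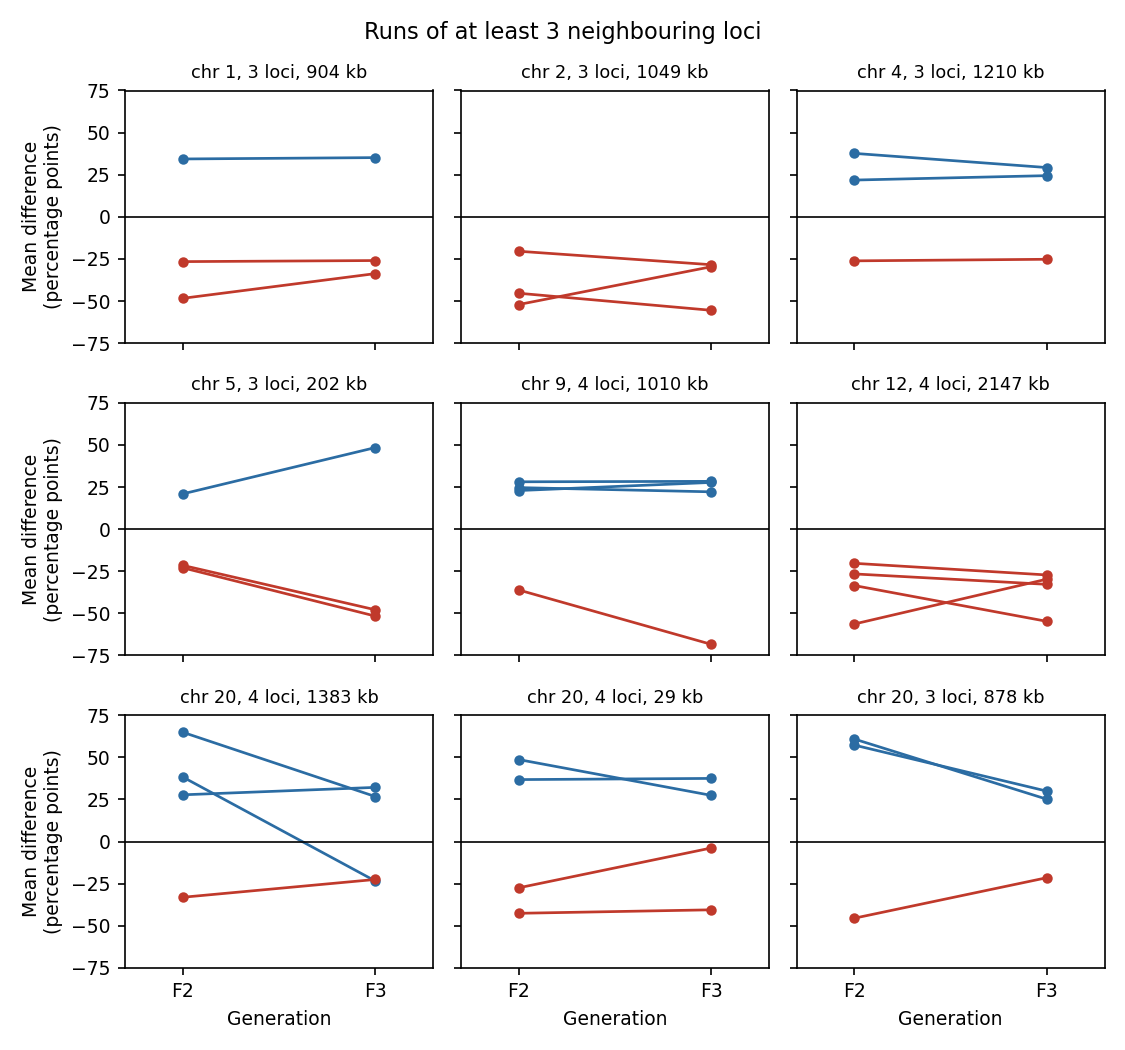
Mean methylation difference in F2 and F3 (y axis, percentage points) for each locus of the 9 runs with at least 3 loci at most 1 Mb apart, 1 line per locus, coloured blue where F2 was hypermethylated and red where it was hypomethylated. The lines of chromosome 5 spread away from 0 towards F3, those of the 878 kb run of chromosome 20 draw towards 0, and 1 line of chromosome 20 crosses 0.

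All 20 chromosomes with listed cytosines held such loci, from 2 on chromosome 11 to 24 on chromosome 1. Chromosome 1 held 14.6% of them and 9.94% of all loci in the lists, chromosome 20 held 8.54% and 4.68%, and chromosome 9 held 7.93% and 3.87%. Among those below their share of all loci were chromosome 6 (4.27% against 6.59%), chromosome 17 (1.83% against 3.98%) and chromosome 11 (1.22% against 3.02%). These chromosomes were picked after their values were seen, loci of a run lie near each other, and the spread was not tested.

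**Figure D4:**
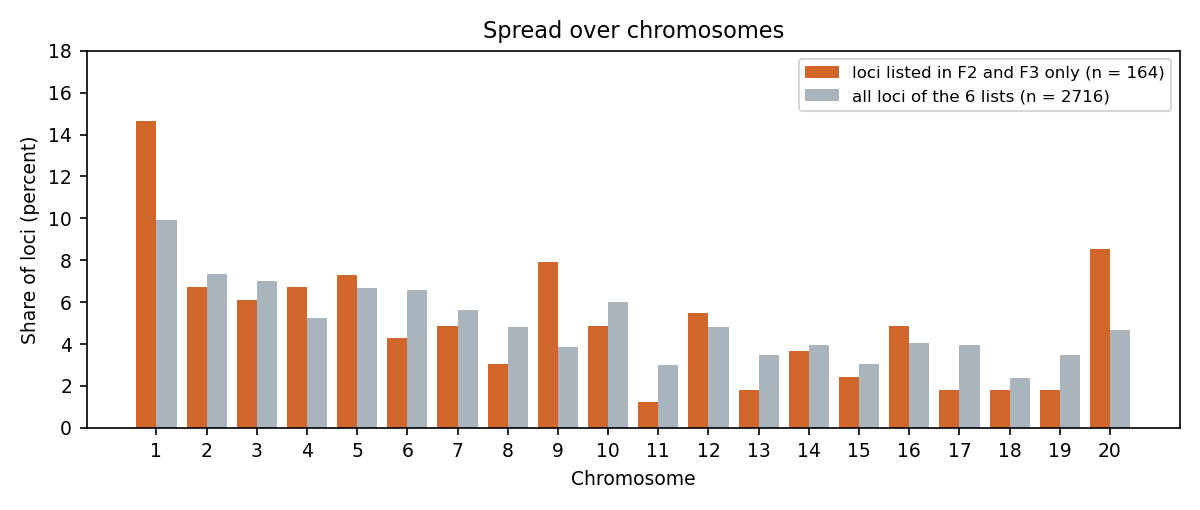
Share of loci on each chromosome (y axis, percent) for the 164 loci listed in F2 and F3 only and for all 2716 loci of the 6 lists. Chromosomes 1, 9 and 20 stand furthest above their share of all loci, at 14.6%, 7.93% and 8.54%.

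Where the F1 lists came near, their entries had either direction. The nearest F1 cytosine lay a median of 443 kb away, at least 1938 bp and at most 8.15 Mb. It lay within 100 kb of 33 loci, or 20.1%, a share that was 19.9% for the 372 loci listed in F2 alone and 15.7% for the 864 listed in F3 alone. Of the 28 loci of the same sign within that distance, the F1 cytosine had their sign in 14 and the other sign in 14. Hypermethylated loci made up 70.5% of the 786 loci listed in F1 alone, so these counts also depend on the directions within the F1 lists. Some F1 cytosines were the nearest one of more than 1 locus, and the counts were not tested. The closest was the F1 cytosine 1938 bp from chr11:77660285, with 21.6 points per the authors' deposited table, which is the sign of F2 and not of F3 there. Next came chr6:109042003, with -53.0 points for F2, -30.5 for F3 and an F1 cytosine of 41.3 points 2642 bp away, per the authors' deposited table.

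The loci were set beside those with other generations listed, again among loci with fewer than 5 cytosines and without a test. Their F2 median of 27.0 points compares with 24.0 for the 372 loci listed in F2 alone, 28.8 for the 136 listed in F1 and F2, and 33.8 for the 128 listed in all 3 generations. The share over 40 points in F2 was 20.1%, against 9.14%, 15.4% and 35.2%. In F3 the median of 28.0 points compares with 25.2 for the 864 loci of F3 alone, 28.0 for the 197 listed in F1 and F3, and 28.8 for those of all 3 generations. The share over 40 points in F3 was 11.6%, against 8.22%, 16.8% and 21.9% in the same order. Lone cytosines made up 58.5% of the loci described here, 80.1% of those in F2 alone, 82.2% of those in F3 alone and 55.5% of those in all 3 generations. They made up 61.0% of the loci listed in F1 and F2 only and 49.7% of those in F1 and F3 only. Listing depends on the size of a difference and on the number of cytosines, so nothing is read from these gaps between classes.

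**Figure D5:**
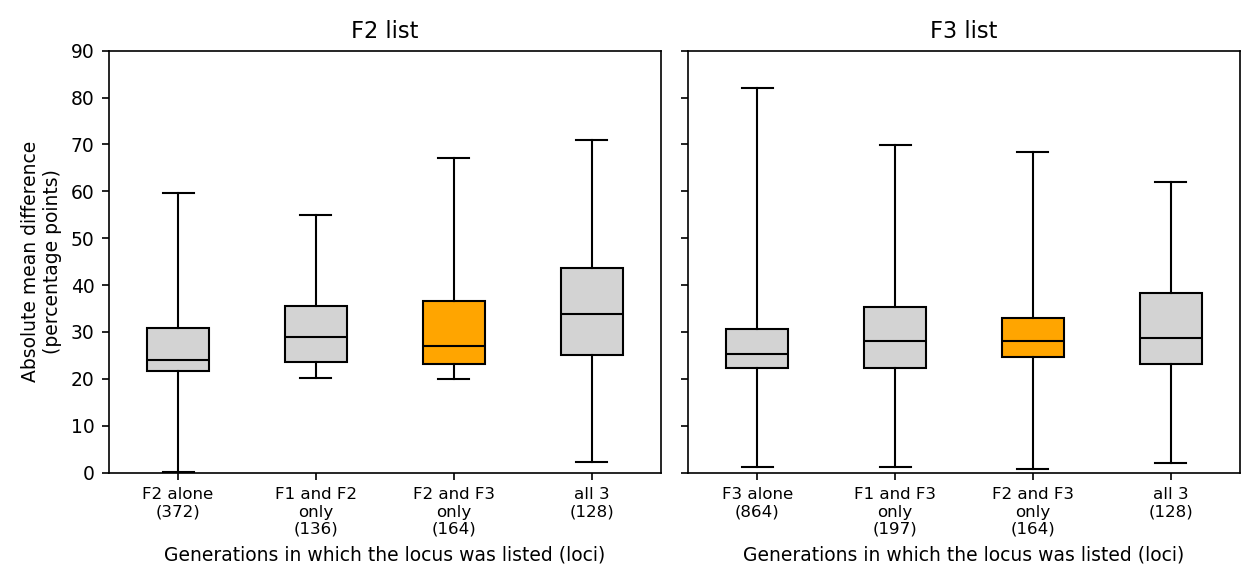
Absolute mean difference of loci (y axis, percentage points) by the generations in which they were listed (x axis, number of loci in brackets), for the F2 list on the left and the F3 list on the right; boxes give the median and quartiles and whiskers the full range. The loci listed in F2 and F3 only (orange) have medians of 27.0 and 28.0 points; values under 20 points are means of loci with cytosines of both signs.

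The share of the same sign can be set beside that of other pairs of generations. It was 119 of the 136 loci listed in F1 and F2 only (87.5%) and 121 of the 197 listed in F1 and F3 only (61.4%). In the 128 loci listed in all 3 generations it was 109 between F2 and F3 (85.2%). Between F1 and F2 it was 114 of these 128 (89.1%), and between F1 and F3 it was 107 (83.6%). The 83.5% of the loci described here lies near these shares, apart from the 61.4%. These shares were not tested against each other.

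At the edges of the rule, 7 loci held 4 cytosines and 1 locus left out held 5. This locus, on chromosome 2 from 77723991 to 77724200, had a mean of -23.9 points over 2 cytosines in F2 and, in F3, 5 cytosines of both signs from -46.2 to 36.3 points. The other 3 loci left out for their size, with 7, 8 and 13 cytosines, were hypomethylated in both generations. The entries nearest to the minimum in the authors' deposited table were those of chr15:18197482 (-20.02 points) and chr1:195258340 (-20.02) for F2 and of chr2:132646572 (20.07) for F3. No values under the minimum were used here, so the loci just outside it are not known. Of the entries of these loci, 56.3% in F2 and 50.7% in F3 had a q-value listed at 0, against 48.8% and 36.8% of all entries in those lists. All entries include those of these loci and of denser ones. The loci also had to be listed in both generations, so nothing is read from this gap, which was not tested.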

How the data were processed

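Reduced representation bisulfite sequencing of 48 rat sperm samples was deposited as 6 lists of cytosines, per the labels. Listed without role or settings in the submitters' processing notes are methylKit 0.9.4, Bismark 0.14.5, Trim Galore 0.4.0, bedtools 2.17, SAMtools 1.2 and CASAVA. No coverage minimum or model is stated. The score used is the authors' signed methylation difference in percentage points, and each entry also has the authors' deposited p-value and q-value.

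Cytosines (chromosome, position and strand) were pooled and merged at 1000 bp, and each locus took the mean of its listed differences per generation. Shares have 95% exact Clopper-Pearson intervals in the tables. No test was made, because the contrasts that chose the loci are the only values. Named loci were those with the largest smaller absolute mean of F2 and F3 (8 hypermethylated, 8 hypomethylated, 8 opposite), the 5 with the largest change in size each way, up to 6 with 4 cytosines, the 4 runs with most loci, and the extreme entries. Other runs and chromosomes, and loci with mixed signs or near an F1 cytosine, were named after their values were seen. The loci and rules were chosen with earlier results of these data known. Merging was checked on a made-up list. Computations used pandas 2.3.3, numpy 2.4.6, matplotlib 3.10.9 and SciPy 1.17.1 with Python 3.11.15.

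The planned gene lists were not counted, since no annotation of Rnor_5.0 was used. Depth per sample is unknown.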

Additional observations from a re-analysis of the deposited data

How the results depend on the processing

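Values were recomputed with merging at 100, 500, 2000 and 10000 bp, a minimum of 25 points, q of at most 1e-5, no upper limit on cytosines, strands of 1 CpG joined, the largest instead of the mean difference, and, chosen after seeing the data, without the 2 loci of mixed sign. Of 90 recomputed values, 84 stayed within the 95% interval (shares, medians) or within 1.5 times (counts). Some of these could not change, such as the numbers of loci and cytosines when the largest difference was used. At 25 points there were 156 cytosines, medians of 35.0 points in F2 and 32.1 in F3, and 90.0% of loci of the same sign; the medians move by construction. That setting gave 110 loci, counted above as within 1.5 times, which overlap 87 of the 164, and can admit loci whose F1 entry was under 25 points. Loci with a cytosine listed in both generations were 97.1% at the stricter q and 96.4% with strands joined. The number of loci ranged from 110 to 168. Opposite loci numbered 24 to 29 under the 4 merging distances, 11 at 25 points and 18 at the stricter q.

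Leaving out single samples could not be done, and no paired analysis was possible because the lists hold group differences only. The lack of depth and of sample values limits every comparison.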
